A study of Homo sapiens with 6 samples.

Results

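The interferon-stimulated genes described here are 47 human genes that are induced by, or carry, the interferon signal. They were chosen by symbol for their known place in the interferon response, with earlier results of these data known. They make up 47 of the 52992 genes summed in the 6 libraries. Their RNA was measured in NB4 cells, a line from an acute promyelocytic leukemia, after an inducible CRISPR knockout of ARID1A, which encodes a DNA-binding part of SWI/SNF chromatin remodelers. The questions were which of these genes an unstimulated NB4 cell expressed, whether their levels differed in ARID1A-deficient cells, and whether the set moved as one.

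Type I interferon binds a receptor made of IFNAR1 and IFNAR2. The receptor's kinases JAK1 and TYK2 phosphorylate STAT proteins, and STAT2 together with IRF9 enters the nucleus as part of the ISGF3 complex, which binds interferon-stimulated response elements in the promoters of its target genes. The products sense foreign RNA, block viral entry and translation, and degrade RNA, and many cells hold a low level of them without added interferon. In promyelocytic leukemia cells, IRF1 and several of these genes are known to respond to retinoic acid, a drug that the labels of these samples do not name.

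All libraries came from NB4 cells that stably expressed Cas9 and carried, on a lentiviral vector, a small guide RNA (sgRNA) under doxycycline control. The LacZ control group had an sgRNA against the lacZ gene of Escherichia coli, and the sg1 and sg5 groups, both labelled ARID1A-deficient, had different sgRNAs against ARID1A. Every group, the control included, received 1 μg/ml doxycycline for 7 days, and the methods of the study add a further culture without the drug before RNA was isolated. There were 2 replicates per group, and nothing states whether they were separate cultures, so p-values measure the spread between these libraries. The cells were an edited population of a single line, the share of edited cells is not given by the labels, and in bulk RNA fewer expressing cells and less RNA per cell cannot be told apart.

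Libraries held 46131178 to 54843745 estimated counts. The promyelocyte markers MPO, PRTN3, AZU1 and CTSG were abundant and ELANE was nearly absent. The summed level of the 5 promyelocyte markers was 6750 to 8950 TPM (transcript abundance corrected for length), against at most 1.19 for 3 markers of plasmacytoid dendritic cells, which are major interferon producers, and at most 17.4 for 5 monocyte or macrophage markers. The promyelocyte sum was 8060 and 8950 TPM in LacZ, 8000 and 7460 with sg1, and 6750 and 7320 with sg5. Every ARID1A-deficient library was thus below both LacZ libraries, though sg1 replicate 1 (8000 TPM) was close to the lower LacZ value (8060 TPM). Most of the sum was MPO, at 5990 to 7770 TPM. On counts scaled to library size, 9.51% of all genes tested at 1 TPM or more lay wholly below LacZ. With both guides joined, the adjusted p for a lower level was 0.0777 for AZU1 and 0.0227 for CTSG by DESeq2. By edgeR it was 0.349 and 0.265. On counts scaled to library size, the groups overlapped for MPO and PRTN3. ARID1A mRNA stood at 155 and 191 counts scaled to library size (CPM) in LacZ, 211 and 191 with sg1, and 124 and 145 with sg5. It passed the threshold in neither comparison with LacZ, and since an edited gene can still be transcribed, these levels do not check the labels. For the protein, the study presents an immunoblot of doxycycline-induced ARID1A knockout in NB4 cells carrying Cas9 and an ARID1A sgRNA. On the first principal component of all genes, which held 34.4% of the variance, sg1 replicate 1 (34.3) and sg5 replicate 2 (46.8) stood apart from the other 4 libraries (-30.3 to -11.3). The same libraries had the highest summed level of 8 mitosis genes, 915 and 984 TPM against 745 to 759 in the others. The part of this division in the results below was not tested. Values without both of those libraries are given only for the set as a whole and for OAS3, IFIT1 and IFI30.

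Many of these genes carry the response element near their start. Its core was searched on both strands as GAAA, any 2 bases and GAAA, in the 250 bases before the RefSeq transcription starts (GRCh38.p14). Of the 47 members, 37 had an entry, and the core was found in 22 of them (59.5%), against 3.71% of all 27305 genes with an entry. The STAT-type element, TTC, any 3 bases and GAA, was found in 10 of the 37 (27.0%), against 8.09% of all genes. The 160 bases before the start are printed below for ISG15 and IFI6, expressed members with repeated cores, for IFIT1 and OAS3, whose mean levels in the ARID1A groups stood above and below LacZ, and for IFI30, where neither strand held the core in the window searched. Each is written 5′ to 3′ on the gene's strand, and capitals mark matches to the core on either strand.
ISG15, chr1:1013337-1013496, plus strand: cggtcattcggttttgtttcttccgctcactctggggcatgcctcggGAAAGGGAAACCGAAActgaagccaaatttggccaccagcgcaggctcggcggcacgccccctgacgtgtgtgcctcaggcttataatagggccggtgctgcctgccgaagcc
IFIT1, chr10:89392463-89392622, plus strand: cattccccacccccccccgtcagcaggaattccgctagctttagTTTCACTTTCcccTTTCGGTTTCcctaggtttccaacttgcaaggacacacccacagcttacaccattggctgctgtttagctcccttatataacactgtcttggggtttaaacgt
IFI6, chr1:27672193-27672352, minus strand: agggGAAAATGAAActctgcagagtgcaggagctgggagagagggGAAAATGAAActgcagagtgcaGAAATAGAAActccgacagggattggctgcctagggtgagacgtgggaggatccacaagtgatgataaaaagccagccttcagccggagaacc
OAS3, chr12:112938314-112938473, plus strand: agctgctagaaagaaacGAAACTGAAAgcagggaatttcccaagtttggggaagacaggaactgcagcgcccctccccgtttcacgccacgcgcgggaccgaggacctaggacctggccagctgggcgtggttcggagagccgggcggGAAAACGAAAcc
IFI30, chr19:18173653-18173812, plus strand: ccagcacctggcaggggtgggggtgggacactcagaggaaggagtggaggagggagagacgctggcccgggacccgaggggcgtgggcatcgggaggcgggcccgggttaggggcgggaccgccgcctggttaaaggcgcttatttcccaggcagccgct
In ISG15 the overlapping cores run together into a single block of capitals, and in IFI6 there are 3 separate ones. The 22 members with a core had a median level of 2.33 TPM, against 7.81 TPM for the 15 without. For the tested members of these groups, 19 and 15 genes, the median log2 fold change between both ARID1A groups joined and LacZ was 0.03 with a core and 0.06 without.

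NB4 cells expressed most of the set at a low level. The mean TPM over the 6 libraries was at least 1 for 38 of 47 members (80.9%), a level reached by 27.4% of all genes. At 5 TPM or more there were 22 members (46.8%), against 19.1% of all genes. At 50 TPM or more there were 3 members (6.38%), near the 5.67% of all genes. All genes here are the 52992 summed, with no filter on gene type. Counts were high enough to test 44 members, and the 3 left out by the low-count filter were GBP1, IFI27 and IFI44.

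The most abundant member was IFITM2, a membrane protein that restricts the entry of enveloped viruses, at 210 and 188 TPM in LacZ, 224 and 197 with sg1, and 194 and 201 with sg5. BST2 (tetherin), which holds budding virus at the cell surface, stood at 95.9 and 97.5 TPM in LacZ, 132 and 93.5 with sg1, and 101 and 110 with sg5. MX2, a GTPase that blocks lentiviral nuclear import, stood at 59.1 and 48.1 TPM in LacZ, 48.7 and 60.0 with sg1, and 51.9 and 48.2 with sg5. For BST2 both sg5 values lay above both LacZ values while those of sg1 lay on either side of them, and for IFITM2 and MX2 the groups overlapped. IFITM1 followed at 53.0 and 44.2 TPM in LacZ, 45.1 and 42.2 with sg1, and 41.8 and 37.6 with sg5. SP100, a constituent of the nuclear bodies built on PML, was at 40.9 and 34.1 TPM in LacZ, 35.6 and 36.7 with sg1, and 38.8 and 33.0 with sg5. The groups overlapped for SP100, and for IFITM1 both sg5 values were below both LacZ values while those of sg1 overlapped them. ISG15, the ubiquitin-like protein that is conjugated to other proteins under interferon, was next at 30.7 to 43.6 TPM. Among all genes at 1 TPM or more, IFITM2 lay at the 95.7th percentile and ISG15 at the 72.4th.

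Several genes often used as reporters of an interferon response were nearly silent. The 9 members under 1 TPM were XAF1, OAS3, OAS2, RSAD2, IFIT5, IFI27, GBP1, IFI44 and IFI44L. IFI27 had 1 to 5 counts per library, IFI44 had 0 to 4, and GBP1 had 1 to 11. At such counts a difference between groups was not detectable.

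**Figure D1:**
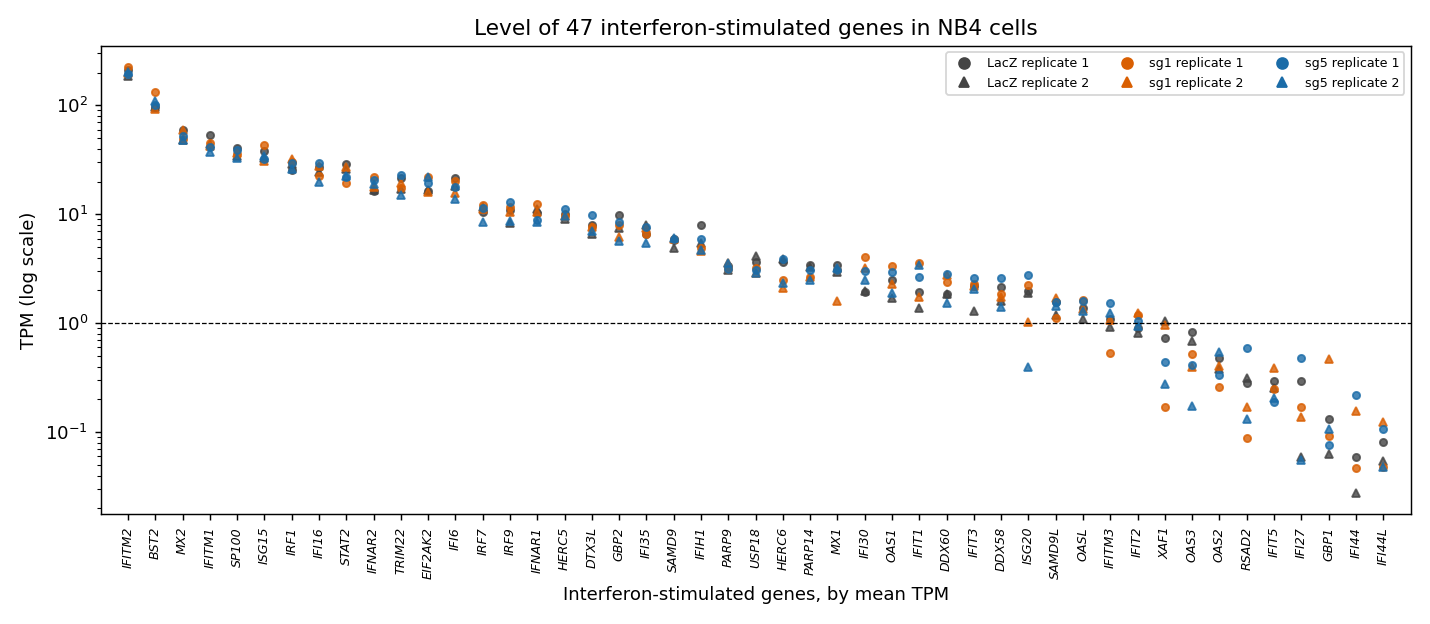
Level of each of the 47 interferon-stimulated genes (TPM, log scale) in the 6 libraries, ordered by mean TPM. Circles and triangles are replicates 1 and 2, and the dashed line marks 1 TPM. IFITM2 and BST2 lead, 38 genes lie above the line on average, and the 6 libraries lie close together for most genes above it. IFI44 was at 0 in sg5 replicate 2, which is not drawn.

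IFITM3 was far less abundant than its relatives. It had 28 and 19 counts in LacZ, 14 and 23 with sg1, and 32 and 27 with sg5 (mean 1.07 TPM). By CPM both sg5 libraries, at 0.682 and 0.534, were above the others, although the lower of them was close to LacZ replicate 1 at 0.532, and sg1 overlapped LacZ. IFITM2 had 3304 to 4319 counts per library and IFITM1 970 to 1422. The coding sequences of these neighbours on chromosome 11 are closely alike, and the annotated span of IFITM2 (307631 to 315272, GRCh38) contains that of IFITM1 (313506 to 315272). How the estimated counts were split among the 3 genes is therefore uncertain.

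No member passed an FDR of 0.1 in any comparison by edgeR's quasi-likelihood test with Benjamini-Hochberg adjustment over all 18514 genes tested. In sg1 against LacZ, 0 of 44 members were called, where 0.0378% of all genes were. In sg5 against LacZ the count was 0 of 44, with 0.0972% of all genes called, and with both guides joined it was 0 of 44, with 0.167% of all genes called. Between sg1 and sg5, 0 of 44 members and 0.0054% of all genes were called. DESeq2 called 0 members in each of the 4 comparisons, where it called 0.501%, 1.14%, 1.46% and 0.0152% of the genes it tested. The 3 comparisons with LacZ share the same pair of control libraries.

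At an unadjusted p under 0.05, edgeR picked 3 of 44 members in sg1 against LacZ (4.15% of all genes), 2 in sg5 (7.47% of all genes), 3 with the guides joined (7.21%) and 0 between sg1 and sg5 (1.38%). DESeq2 picked 1, 2, 3 and 0 members, where it picked 3.26%, 7.32%, 7.23% and 0.561% of the genes it tested. These shares are near or below those of all genes except in sg1 by edgeR, where 6.82% of members were picked. The genes concerned were OAS3, IFIT1, IFIT2 and IFI30.

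OAS3 (ENSG00000111331, chromosome 12, 112938352 to 112973249) encodes an oligoadenylate synthetase that senses long double-stranded RNA and activates RNase L. It had 69 and 64 counts in LacZ, 29 and 36 with sg1, and 26 and 15 with sg5. All 4 ARID1A-deficient libraries were below both LacZ libraries, with sg5 replicate 2 the lowest. In CPM the means were 1.29 ± 0.0287 in LacZ, 0.692 ± 0.167 for sg1 and 0.425 ± 0.182 for sg5 (SD, n = 2). The log2 fold change was -0.90 ± 0.38 (SE) for sg1, with an edgeR adjusted p of 0.993, and -1.60 ± 0.39 for sg5, with an adjusted p of 0.418. With the guides joined it was -1.25 ± 0.32 (95% interval -1.98 to -0.52, adjusted p = 0.349 by edgeR). With no low-count filter, edgeR gave OAS3 an adjusted p of 0.0114 in sg5 and 0.0155 with the guides joined, the only setting tried in which any member was called. Without both libraries that stood apart, the joined fold change was -0.92 (edgeR adjusted p = 0.363). Across the other settings the fold change for sg5 ran from -2.09 without sg5 replicate 1 to -0.68 by limma on log2(TPM + 0.5), a scale that compresses low genes. OAS3 was at 0.506 TPM on average. Of its neighbours on chromosome 12, OAS2 was at -0.19 ± 0.38 and -0.03 ± 0.38 (log2, SE) for sg1 and sg5. OAS1 was at 0.25 ± 0.30 and 0.30 ± 0.30. In sg1 the 95% intervals of both (-1.06 to 0.67 and -0.43 to 0.93) overlapped that of OAS3 (-1.76 to -0.04). In sg5 the interval of OAS2 (-0.89 to 0.83) overlapped that of OAS3 (-2.50 to -0.70), and that of OAS1 (-0.37 to 0.98) did not. A difference of these genes from OAS3 was not tested.

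IFIT1 (ENSG00000185745, chromosome 10, 89392546 to 89406486) binds viral RNA with an unmethylated cap. It had 162 and 122 counts in LacZ, 269 and 126 with sg1, and 199 and 268 with sg5. The replicates of sg1 were far apart, and sg1 replicate 2 fell within the range of LacZ after scaling (2.84 CPM against 2.42 and 3.08). The 2 libraries with the most IFIT1, sg1 replicate 1 at 5.32 CPM and sg5 replicate 2 at 5.30 CPM, are those set apart by the first principal component. The log2 fold change was 0.57 ± 0.32 (SE) for sg1 and 0.80 ± 0.32 for sg5, with adjusted p of 0.993 and 0.663 by edgeR. With the guides joined it was 0.68 ± 0.29, and without both of those libraries it was 0.36 (edgeR adjusted p = 0.675 and 0.778). Most of the spread lay in a single transcript. IFIT1-201 had 89 and 43 counts in LacZ, 224 and 72 with sg1, and 123 and 203 with sg5. IFIT1-202, which shares sequence with it, had 73 and 79, then 45 and 54, then 76 and 65, and by TPM it was above LacZ (0.672 and 0.745) in sg5 replicate 1 alone, at 0.772.

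IFIT2 and IFI30 were higher in all 4 ARID1A-deficient libraries than in both LacZ libraries. IFIT2 (ENSG00000119922, chromosome 10, 89283694 to 89309276), a partner of IFIT1 that limits viral translation, stood at 2.37 and 2.16 CPM in LacZ, 3.24 and 3.33 with sg1, and 2.79 and 2.63 with sg5. Its log2 fold change was 0.53 ± 0.23 (SE) for sg1 and 0.26 ± 0.23 for sg5, with adjusted p of 0.993 and 0.786 by edgeR. IFI30 (ENSG00000216490, chromosome 19, 18173162 to 18178117) is a lysosomal thiol reductase of antigen processing that is induced by interferon-gamma. It had 79 and 67 counts in LacZ, 151 and 101 with sg1, and 109 and 101 with sg5. The log2 fold change was 0.89 ± 0.27 for sg1, 0.61 ± 0.27 for sg5 and 0.75 ± 0.24 with the guides joined, with edgeR adjusted p of 0.851, 0.678 and 0.505. Without the libraries that stood apart, the joined value was 0.70. OAS3, IFIT2 and IFI30 did not overlap LacZ in either group, but none passed the threshold over all genes. They were named here for an unadjusted p under 0.05 in these same libraries, which favours such separation. Of all genes tested at 1 TPM or more, 11.5% lay wholly above LacZ and 9.51% wholly below. OAS3 is under that level and outside these shares.

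**Figure D2:**
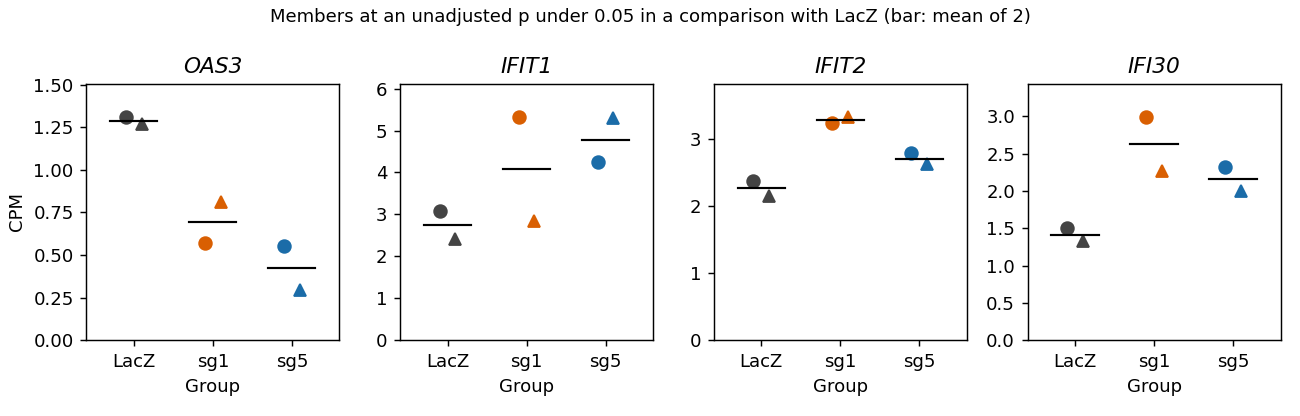
CPM of OAS3, IFIT1, IFIT2 and IFI30 in each library, with axes from 0. Circles and triangles are replicates 1 and 2, and bars are means of 2. OAS3 lay below LacZ in all 4 ARID1A-deficient libraries, IFIT2 and IFI30 above, and IFIT1 in sg1 replicate 2 (2.84 CPM) lay between the LacZ values.

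The receptor subunits differed little between groups. IFNAR1 stood at 35.0 and 33.9 CPM in LacZ, 37.1 and 35.7 with sg1, and 39.1 and 37.9 with sg5. The log2 fold changes were 0.08 ± 0.11 (SE) and 0.16 ± 0.11 for sg1 and sg5. IFNAR2 stood at 19.6 and 18.7 CPM in LacZ, 28.3 and 20.0 with sg1, and 21.2 and 22.5 with sg5, with log2 fold changes of 0.33 ± 0.17 and 0.19 ± 0.17. The highest IFNAR2 value was in sg1 replicate 1, and by CPM both genes were higher in every ARID1A-deficient library than in LacZ without passing the test. The same held for 11.5% of all genes tested at 1 TPM or more, whether or not they passed the test. For IFNAR1 the order turned in sg5 on the length-corrected scale, with a mean of 8.71 TPM against 10.7 TPM in LacZ.

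Among the transcription factors, IRF1, which binds the response element without the ISGF3 complex, stood at 28.6 and 31.9 CPM in LacZ, 36.2 and 36.8 with sg1, and 35.3 and 32.8 with sg5. The log2 fold change was 0.27 ± 0.12 (SE) for sg1 and 0.17 ± 0.12 for sg5, with all ARID1A-deficient libraries above LacZ by CPM (edgeR unadjusted p = 0.0533 and 0.192). Of all genes tested at 1 TPM or more, 11.5% lay wholly above LacZ by CPM. By TPM the separation of IRF1 did not hold, since sg5 replicate 2 at 26.3 TPM lay between the LacZ values of 25.5 and 29.2 TPM. STAT2 stood at 39.1 and 38.1 CPM in LacZ, 28.8 and 43.4 with sg1, and 35.8 and 34.7 with sg5. Its replicates in sg1 lay on both sides of LacZ, and its log2 fold changes were -0.10 ± 0.18 and -0.13 ± 0.18. IRF9 was at 8.24 and 7.30 CPM in LacZ, 8.15 and 7.72 with sg1, and 9.08 and 7.20 with sg5. IRF7, the factor that amplifies interferon production, was at 11.4 and 13.0 CPM in LacZ, 14.0 and 11.7 with sg1, and 12.0 and 9.77 with sg5. For both, the 3 groups overlapped. None of the 4 factors had a 95% interval that reached a 2-fold change in sg1 or sg5.

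The RNA sensors and nucleotide enzymes were of mixed direction. Of 9, 5 had a log2 fold change above 0 in sg1 and 6 in sg5, between -0.90 and 0.33 and between -1.60 and 0.30. Among all genes tested, 50.3% were above 0 in sg1 and 48.6% in sg5. EIF2AK2 (PKR), the kinase that halts translation on double-stranded RNA, was at 0.17 ± 0.13 (SE) and 0.26 ± 0.13 in sg1 and sg5. Its highest values, 89.2 CPM in sg1 replicate 1 and 94.8 CPM in sg5 replicate 2, were in the libraries that stood apart. IFIH1 (MDA5), a sensor of long double-stranded RNA, was at -0.39 ± 0.21 and -0.30 ± 0.21. DDX58 (RIG-I), the sensor of RNA with a triphosphate end, was at -0.03 ± 0.29 and 0.14 ± 0.29.

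In the IFIT family, 4 of 4 were above 0 in sg1 (median 0.47) and 3 of 4 in sg5 (median 0.36), where 50.3% and 48.6% of all genes tested were above 0. IFIT3, which stabilizes IFIT1, was at 0.40 ± 0.28 and 0.46 ± 0.28, and IFIT5 at 0.23 ± 0.34 and -0.42 ± 0.35. The 3 GTPases tested were below 0 in both groups, except that MX2 by mean TPM was higher in sg1 (54.4) than in LacZ (53.6). MX1, which traps the nucleocapsids of influenza virus, was at -0.51 ± 0.30 and -0.34 ± 0.29, GBP2 at -0.27 ± 0.22 and -0.30 ± 0.22 and MX2 at -0.01 ± 0.12 and -0.03 ± 0.12 (log2, SE). None of these genes passed the adjusted threshold.

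The ISG15 system also divided. HERC5, the ligase that attaches ISG15, was at 0.07 ± 0.12 and 0.14 ± 0.12 on the log2 scale for sg1 and sg5, while USP18, which removes ISG15 and damps the receptor, was at -0.31 ± 0.20 and -0.33 ± 0.20. ISG15 itself was at 0.11 ± 0.20 and -0.05 ± 0.20. The PARP9, DTX3L and PARP14 group, which modifies chromatin and STAT signalling, lay between -0.15 and 0.16 in both. The 4 membrane restriction factors lay between -0.26 and 0.42, the highest being IFITM3 in sg5 with its few counts. Of the other effectors, XAF1, a promoter of apoptosis, varied most between replicates, with 47 and 91 counts in LacZ, 24 and 91 with sg1, and 35 and 30 with sg5. ISG20, an RNA exonuclease, was below LacZ in all 4 ARID1A-deficient libraries by CPM, but its TPM of 2.24 in sg1 replicate 1 and 2.76 in sg5 replicate 1 exceeded both LacZ values (1.97 and 1.89). IFI6, a mitochondrial and endoplasmic reticulum protein, was at -0.10 ± 0.20 and -0.29 ± 0.21, and IFI35 at 0.08 ± 0.22 and -0.04 ± 0.22.

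**Figure D3:**
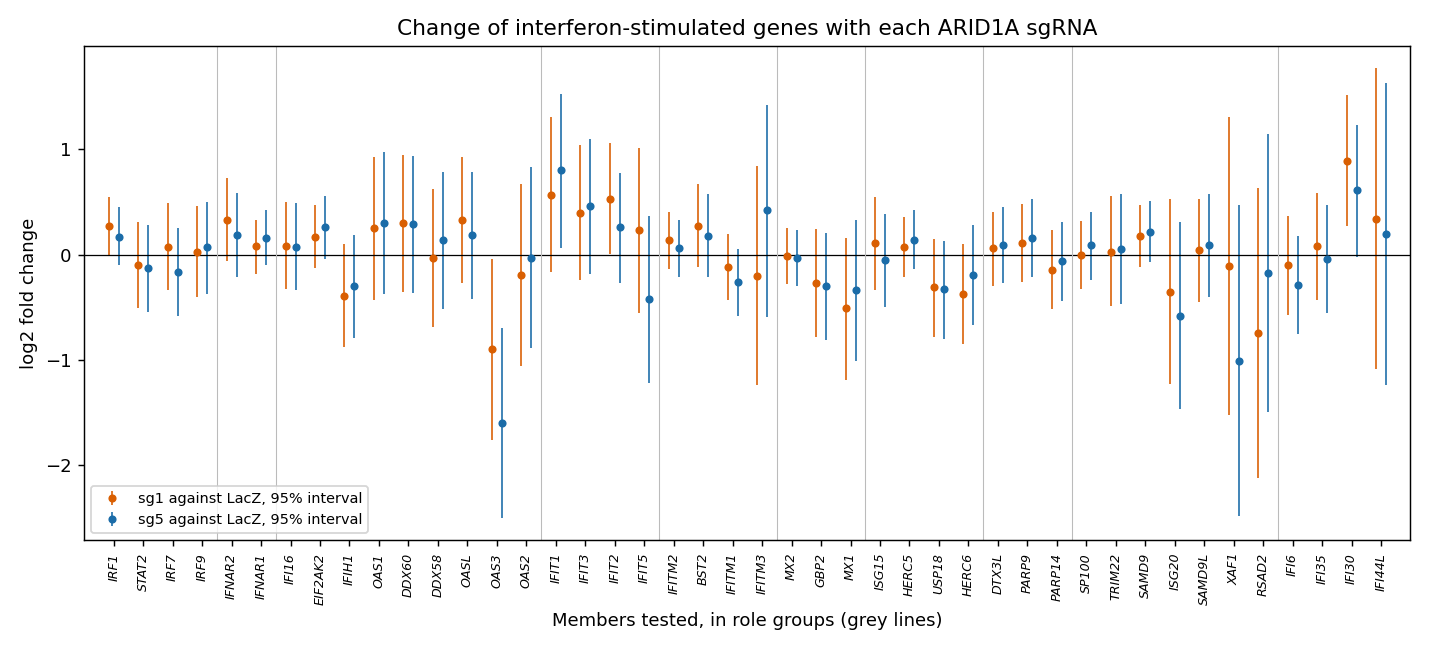
Log2 fold change of the 44 members tested, in sg1 and in sg5 against LacZ, with 95% intervals from the edgeR fit. Grey lines divide the role groups, ordered by mean TPM within each. Most points lie within 0.5 of 0, OAS3 lies lowest at -1.60 in sg5, and IFI30 highest at 0.89 in sg1.

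Members of the set lay on both sides of LacZ in the ARID1A-deficient groups, and the quartiles of the set spanned 0 in each comparison with LacZ. Over the 38 expressed members, the median log2 fold change was 0.07 in sg1 (quartiles -0.10 and 0.23), 0.09 in sg5 (-0.11 and 0.19) and 0.07 with the guides joined (-0.09 and 0.22). It was 0.01 over all 13818 expressed genes tested in each case. With the guides joined, 26 of the 38 were above 0 (68.4%, against 52.3% of all expressed genes tested) and 12 below. Without sg5 replicate 1 the median for sg5 was -0.08, and without LacZ replicate 2 the medians were 0.01 in sg1 and 0.00 in sg5, so even the direction in sg5 rested on single libraries. Without both libraries that stood apart, the joined median was 0.11. The 95% interval lay within a 2-fold change in either direction for 31 of 38 members in sg1, 32 in sg5 and 35 with the guides joined. These are 81.6%, 84.2% and 92.1% of members, against 82.8%, 81.0% and 86.3% of all expressed genes. Between sg1 and sg5 the median was -0.01, and the interval lay within a 2-fold change for 36 of 38. The largest difference between guides among these 38 was that of IFITM3, -0.62 (95% interval -1.64 to 0.41).

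By position alone, 9 of the 38 members (23.7%) had all 4 ARID1A-deficient libraries above both LacZ libraries, where 11.5% of all expressed genes did. These were HERC5, IFI30, IFIT2, IFNAR1, IFNAR2, IRF1, OASL, PARP9 and SAMD9. In the opposite direction the count was 2 (5.26%), USP18 and ISG20, against 9.51% of all expressed genes. The counts were not stable. On gene TPM the number above was 4, and with library totals in place of TMM factors it was 5. Leaving out a library can only raise such a count, and the number above became 16 without LacZ replicate 1. The number below became 10 without LacZ replicate 2, 4 without sg1 replicate 1 and 5 without sg5 replicate 1. Without both libraries that stood apart, 14 members were above and 5 below.

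Most members differed in the same direction between libraries of the same group, by the replicate number in the labels (E1 and E2), whose meaning they do not give. This comparison was made after the values were seen. In LacZ, 32 of the 38 members (84.2%) were higher in replicate 1 than in replicate 2, against 50.6% of the 13767 expressed genes with no library at 0. In sg1 the count was 27 (71.1%, against 50.7%) and in sg5 it was 30 (78.9%, against 48.4%). The median difference over members, replicate 1 minus replicate 2, was 0.17 in LacZ, 0.11 for sg1 and 0.26 for sg5 (log2), and -0.01 to 0.01 over all genes. These medians compare single libraries, while the median differences of sg1 and sg5 from LacZ, 0.07 and 0.09, compare groups of 2 libraries. Their sizes are therefore not on a like scale. Between single libraries of the same number, the median difference from LacZ ran from -0.01 to 0.11.

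In all 3 groups, 16 of the 38 members (42.1%, against 9.99% of all expressed genes) were higher in replicate 1. They included IRF9, IFNAR1, MX1, GBP2, IFIT3, IFI6, IFIH1, OAS1, OASL, SP100 and IFITM1. No expressed member was lower in replicate 1 in all 3 groups, as 9.92% of all genes were. IFIH1 stood at 18.5 and 12.6 CPM in LacZ, 12.3 and 11.3 with sg1, and 14.1 and 11.1 with sg5. GBP2 stood at 16.3 and 12.7, then 13.7 and 10.4, then 13.7 and 9.89. These were the only members at an unadjusted p under 0.05 for the replicate number in a fit with group and replicate number (2 of 44, where 1.25% of all genes were picked in this direction), with edgeR log2 differences of 0.34 ± 0.14 and 0.41 ± 0.12 (SE). In that fit 0 of 44 members and 0% of all genes passed the adjusted threshold. The libraries set apart by the first principal component had different numbers, and each group holds both numbers. With the replicate number as a block, 0 members were called in the group comparisons. The count was also 0 without the block, so it cannot show the part of the replicate number.

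Set beside the LacZ library of its own number, sg1 replicate 1 had a median log2 difference of -0.01 over the 38 members, sg1 replicate 2 had 0.11, sg5 replicate 1 had 0.11 and sg5 replicate 2 had 0.01. In these pairs 19, 26, 25 and 19 of the 38 members were higher than in LacZ.

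**Figure D4:**
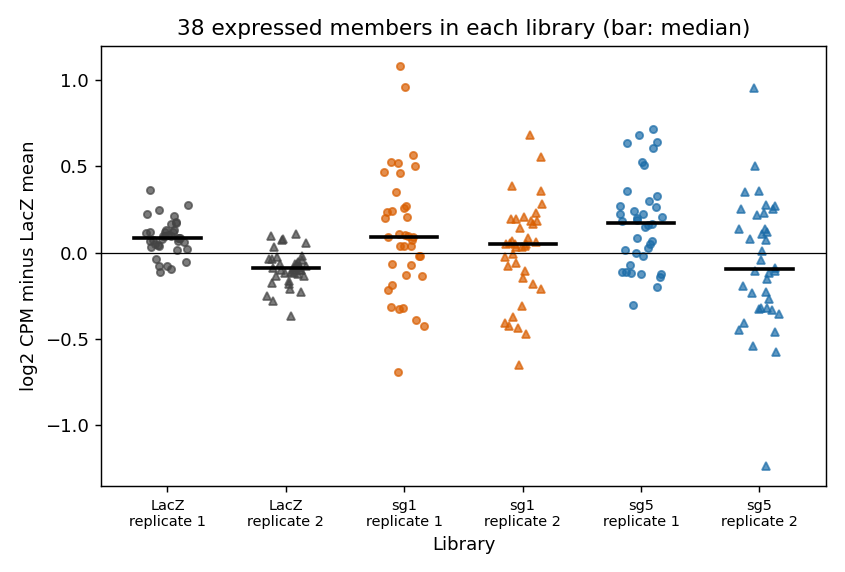
Log2 CPM minus the LacZ mean for the 38 expressed members in each library, each point a gene and each bar the median. For replicates 1 and 2 the medians were 0.09 and -0.09 (LacZ), 0.09 and 0.05 (sg1) and 0.17 and -0.10 (sg5), so the bar for replicate 1 is the higher in each group.

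Upstream of the set, the signalling genes were mostly expressed and the interferon genes themselves were nearly silent. Of the 20 interferon ligand genes measured, 13 had 0 counts in every library, and only IFNA1, with 5 to 12 counts, could be tested. All 20 together had 77 counts over the 6 libraries. The signalling list had 15 of 16 genes tested, the nucleic acid sensing list 15 of 17 and a list of other interferon-stimulated genes 30 of 32. Neither edgeR nor DESeq2 called any of them in any of the 4 comparisons. With the guides joined, edgeR picked 1 of the 15 signalling genes, 3 of the 15 sensing genes and 1 of the 30 others at an unadjusted p under 0.05, where 7.21% of all genes were picked. TYK2 was at 516 TPM and JAK1 at 22.7 TPM on average, and STING (TMEM173), the adaptor of cytosolic DNA sensing, at 113 TPM, while the endosomal sensors TLR3, TLR7, TLR8 and TLR9 were each under 1 TPM.

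In all, 6 genes of these lists were at an unadjusted p under 0.05 in at least 1 comparison. TREX1, the exonuclease that clears cytosolic DNA, stood at 1.94 and 2.42 CPM in LacZ, 3.28 and 2.88 with sg1, and 3.99 and 3.60 with sg5, with log2 fold changes of 0.50 (edgeR adjusted p = 0.993) and 0.80 (adjusted p = 0.535). All 4 ARID1A-deficient libraries were above both LacZ libraries. MYD88, the adaptor of most Toll-like receptors, stood at 46.6 and 43.6 CPM in LacZ, 61.6 and 50.8 with sg1, and 52.6 and 54.8 with sg5, also above LacZ in all 4, with log2 fold changes of 0.32 and 0.25 (edgeR adjusted p = 0.993 and 0.688). By CPM, 11.5% of all genes tested at 1 TPM or more lay wholly above LacZ. TREX1 and MYD88 were named for an unadjusted p under 0.05 in these same libraries, which favours such separation. The highest MYD88 values were in sg1 replicate 1 (61.6 CPM) and sg5 replicate 2 (54.8 CPM), whose first-component scores were also the highest. The highest TREX1 value was in sg5 replicate 1 (3.99 CPM). SAMHD1, a dNTP hydrolase, had log2 fold changes of 0.24 and 0.35, and ZC3HAV1 (ZAP), which binds CpG-rich viral RNA, 0.29 and 0.43. IRF8, a factor of monocyte and dendritic development, was at 0.29 and 0.35. RNF213, a large ubiquitin ligase, was the gene of these lists at that level between the guides. It stood at 56.6 and 49.7 CPM in sg1 and 41.3 and 34.0 in sg5, against 49.5 and 50.3 in LacZ (log2 difference sg1 minus sg5 0.50, edgeR unadjusted p = 0.00529, adjusted p = 1).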

How the data were processed

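RNA-seq libraries were prepared with the TruSeq kit, and the authors quantified reads per transcript with kallisto (version for the human libraries and transcript set not given in the sources used here). The deposited tables hold estimated counts, in which reads shared by transcripts are split, and TPM, scaled by the authors to effective transcript length. The labels name hg19. Transcripts were matched by identifier to GENCODE 29 (GRCh38), which matched 181857 of 196354 transcripts (92.6%) and 95.44% to 95.53% of counts, and coordinates come from that match. Counts were summed to 52992 genes and rounded. Reads from antisense or near-identical genes may be misassigned.

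Genes were tested with edgeR 4.0.16 (R 4.3.3) by the quasi-likelihood F-test with TMM scaling, the filterByExpr low-count filter (minimum 10), all 6 libraries and group as the only term, at an FDR of 0.1. The common biological coefficient of variation was 16.6%. DESeq2 1.42.0, limma 3.58.1 on log2(TPM + 0.5), other scaling, filters, a length offset, a replicate block and leaving out each library were alternatives. The scripts were tested on simulated data. Standard errors were derived from the F statistic, and CPM was scaled by TMM. Joins, motif searches and plots used Python 3.11.15. Expressed means a mean TPM of at least 1. The members and lists were chosen with earlier results of these data known. Values in every library are given for the receptor subunits, the transcription factors, the 5 most abundant members, the IFITM family and members at an unadjusted p under 0.05 between groups. Genes of the pathway lists at that p are named. Other genes were named by role or as examples after their values were seen.

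RefSeq promoter entries matched 37 of 47 members, DDX58 under its current symbol. Those without an entry were OASL, IFIT2, OAS2, IFNAR2, MX2, IRF7, IFITM2, GBP2, USP18 and TRIM22.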

Additional observations from a re-analysis of the deposited data

Results flagged for a closer look

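GBP1, an interferon-induced GTPase, had a single library far from the other 3 among the ARID1A-deficient libraries. It had 11 counts in sg1 replicate 2, against 3 in sg1 replicate 1 and 2 in each sg5 library. The gap between that library and the nearest of the others was 0.905 of the whole range in CPM, above Dixon's 95% critical value for 4 samples. It was the only one of the 47 members past that value in CPM, chance alone passes it in about 1 in 20 groups, and on log2 CPM none of the 46 members with no library at 0 passed it. The gene was too low to be tested between groups.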

How the results depend on the processing

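The count of members called was 0 in all 4 group comparisons under each alternative run, with a single exception: with no low-count filter it was 1 in sg5 against LacZ and 1 with the guides joined, OAS3 in both. The cause was not tested. The main fit called between 0.0054% and 0.167% of all genes in these comparisons, which leaves little room for calls among 44 members. Of the alternatives, an FDR of 0.05 could only lower the count, and the filter at a mean of 50 counts left OAS3 out. The median log2 fold change of the expressed members in sg5, 0.09, ranged from -0.08 (without sg5 replicate 1) to 0.17 (without sg5 replicate 2) as single libraries were left out, and that in sg1, 0.07, from 0.01 to 0.13. The number of members with all ARID1A-deficient libraries above LacZ, 9, was 4 on gene TPM, 5 with library totals only and 5 among members at 5 TPM or more, where fewer genes enter. The number below, 2, was 0 at 5 TPM or more. Leaving out 1 library gave 9 to 16 above and 2 to 10 below, and leaving out both libraries apart on the first component, chosen after seeing the data, gave 14 and 5. At a minimum of 5 TPM the expressed share was 46.8%, against 19.1% of all genes.

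The labels do not say whether a replicate number marks a shared batch. Over all genes, deviations of same-numbered libraries correlated at 0.07 (LacZ and sg1), 0.01 (LacZ and sg5) and -0.21 (sg1 and sg5), so the numbers were not taken as pairs, although 16 of the 38 expressed members were higher in replicate 1 in all 3 groups. In a replicate block fit, 0 members were called in each comparison and the median was 0.07 in sg1 and 0.08 in sg5, and with the numbers of sg5 crossed, a pairing chosen after seeing the data, 0 members were called in each. With 2 replicates per group, differences of members with few counts, such as XAF1 and RSAD2, were not bounded within a 2-fold change.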
